A study of Mus musculus with 29 samples.

Results

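The comparison was between ovaries labelled null for Cdkn1b, the gene of the cell cycle inhibitor p27Kip1, and wild-type ovaries at postnatal day 8 (PND8). It was described across every gene measured, with the follicle, granulosa, stroma and matrix in view. All samples labelled PND8 were taken, 7 of the 29 samples of the series: 4 of genotype Cdkn1b +/+ (WT, replicates 1 to 4) and 3 of genotype Cdkn1b -/- (p27null, replicates 1, 3 and 4). The series asked what cell cycle regulation does in ovarian development, and its title names pregranulosa cells and primordial follicle activation. RNA came from ovaries dissociated with papain and was sequenced in bulk. The labels do not state the design of the null allele, the strain, or whether a sample was 1 animal, pooled animals or littermates, so p-values measure only the spread between these samples. In bulk RNA, fewer cells of a type and less RNA per cell cannot be told apart.

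As background, p27Kip1 binds complexes of cyclins and cyclin-dependent kinases and holds cells out of division. In the newborn mouse ovary each oocyte is enclosed by a few flat pregranulosa cells to form a primordial follicle, most primordial follicles stay dormant, and activated follicles enlarge their oocyte while the granulosa cells become cuboidal and divide. By the second week after birth the mouse ovary holds dormant follicles and a first wave of growing follicles, set in a stroma of fibroblast-like cells that make collagen, elastic fibres and proteoglycans.

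The 7 libraries held 32.3 to 48.2 M counts, and 3 counts, taken as the smallest level a library can show, was 0.0622 to 0.0929 CPM (counts scaled by library size), by counting error alone. Granulosa markers stood in every library: Foxl2, a transcription factor of granulosa cells, read 412, 454, 475 and 431 CPM in WT and 361, 356 and 378 CPM in p27null, in the order of the replicate numbers used throughout. Spearman's rho between libraries was 0.9809 to 0.9903. On the first axis of a multidimensional scaling plot, with 27% of the variance, p27null replicate 1 (0.71) lay among WT replicates 1 to 3 (0.56, 1.06 and 0.75), p27null replicates 3 and 4 lay together (-1.27 and -1.32), and WT replicate 4 lay between (-0.47). On the second axis (20.7%) p27null replicate 1 lay lowest of all (-1.33). WT stood there at -0.76, 0.6, 1.18 and 0.36, and p27null replicates 3 and 4 at -0.49 and 0.45.

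The targeted gene was lower in every p27null library but was still read. Cdkn1b (ENSMUSG00000003031, chr6:134920401-134925513, + strand, GRCm38) stood at 123, 132, 155 and 128 CPM in WT and 71.0, 63.2 and 59.0 CPM in p27null. The groups did not overlap, and the p27null libraries kept 47.9% of the WT level (log2 fold change -1.06, SE 0.10, edgeR adjusted p 0.0216, from edgeR's quasi-likelihood test with Benjamini-Hochberg adjustment over all genes tested). The fall was smaller than at embryonic day 18.5 (E18.5). Scaled together, Cdkn1b read 106 ± 12.1 CPM (n = 4) in WT and 12.7 ± 2.82 CPM (n = 4) in p27null ovaries at E18.5 and 147 ± 15.8 CPM (n = 4) and 70.6 ± 6.73 CPM (n = 3) at PND8, and the difference between the genotype effects at PND8 and E18.5 was 2.01 on the log2 scale (edgeR adjusted p 0.000787). At 12 weeks the log2 fold change was -1.84 (SE 0.25), and its difference from PND8, 0.79 (SE 0.33), did not pass the test (edgeR adjusted p 0.409). Which part of the gene the allele removes is not given in the sources used here, so these gene-level counts do not say whether the remaining RNA encodes the protein. At PND8 the counts do not by themselves bear out the null label, and why the ages differ was not tested.

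Few genes passed the test at PND8, and most of them were lower in the p27null libraries. Of 17785 genes tested, 62 (0.349%) had an adjusted p under 0.05, which is what "called" means here: 8 (0.045%) rose and 54 (0.304%) fell in p27null ovaries. All 62 had groups that did not overlap. The median log2 fold change was -0.86 among the genes that fell and 0.75 among those that rose, 22 of the 62 had a log2 fold change of 1 or more in size, and the median over all genes was -0.00. Adjusted p-values ran from 0.0147 to 0.0486, close to the threshold. At an unadjusted p under 0.05 there were 2662 genes (15%). Over all genes, 1223 (6.88%) had every p27null library above every WT library and 1395 (7.84%) had every p27null library below.

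The calls depended on p27null replicates 3 and 4. No gene was called without p27null replicate 3 or without p27null replicate 4 (1948 and 2139 genes had an unadjusted p under 0.05, edgeR), so every count of genes called at PND8 given here fell to 0 in those fits. Leaving out p27null replicate 1 gave 72 calls, 32 of them among the 62, while leaving out WT replicate 1, 2 or 4 gave 8, 9 and 5, and leaving out WT replicate 3 gave 147. A fit of all 29 samples of the series together called 0 genes (1143 at an unadjusted p under 0.05), whereas DESeq2 called 741 and limma-voom 169. All 62 genes kept their sign in each of the 7 fits that left out 1 library. Their groups did not overlap, so leaving out 1 library could hardly change the sign, and this is no test of direction. The largest adjusted p of these genes in those edgeR fits was 0.117 to 0.197.

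**Figure D1:**
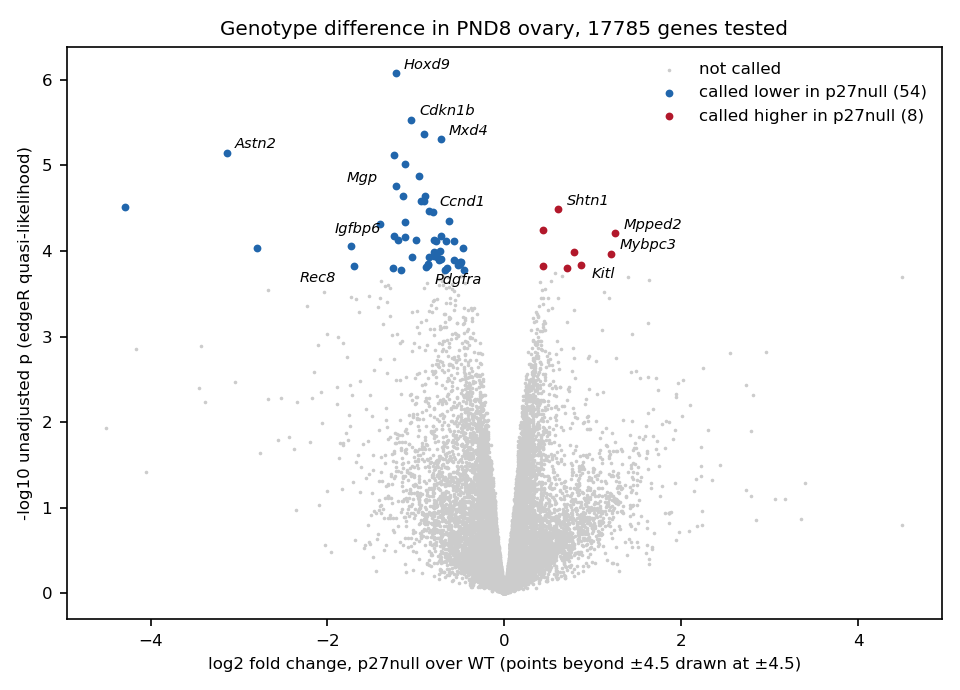
Each of the 17785 tested genes by its log2 fold change (x axis, p27null over WT at PND8) and its -log10 unadjusted p (y axis); grey points were not called, blue points fell and red points rose at an adjusted p under 0.05. The 54 genes that fell outnumber the 8 that rose, and Hoxd9 and Cdkn1b lie highest.

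Among granulosa genes, the ligand gene Kitl rose. It encodes KIT ligand, the granulosa factor that activates the KIT receptor on oocytes. Kitl (chr10:100015630-100100416, + strand, GRCm38) read 232, 163, 218 and 197 CPM in WT and 433, 335 and 340.2 CPM in p27null. Every p27null library was above every WT library, and the mean was 1.82 times the WT mean (log2 fold change 0.87, SE 0.14, edgeR adjusted p 0.0473). The window from 250 bases before to 50 bases after its start site (RefSeq, GRCm38.p6, chr10:100015571-100015870, + strand) is printed because Kitl was the one called gene in both the granulosa and the KIT signalling lists; capitals mark matches to a GC box (GGGCGG, either strand) and to a TATA box (TATAAA, either strand).
Kitl: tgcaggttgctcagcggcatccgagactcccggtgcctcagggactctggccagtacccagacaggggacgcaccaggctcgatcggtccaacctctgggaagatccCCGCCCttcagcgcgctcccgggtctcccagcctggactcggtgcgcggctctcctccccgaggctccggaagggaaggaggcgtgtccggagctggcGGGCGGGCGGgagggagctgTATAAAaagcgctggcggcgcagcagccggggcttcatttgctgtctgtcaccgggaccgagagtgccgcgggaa
The window held 3 GC box matches, 2 of which overlap, and 1 TATA box match that begins 25 bases before the start, and no CCAAT or FOXO (TGTTTAC) match on either strand. Of 32851 mouse promoter windows of this length, 35.7% held a GC box match, 13.6% a TATA box match, 37.4% a CCAAT match and 3.65% a TGTTTAC match. These matches are a description of the letters and not of any factor's binding.

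Other genes of growing-follicle granulosa went in both directions. Of 36 listed and tested genes, Kitl rose and none fell (over all genes 0.045% rose and 0.304% fell), and the median log2 fold change was 0.10. In 7 of the 36, Kitl included, every p27null library was above every WT library (6.88% of all genes), and in 1, Amh, every p27null library was below (7.84% of all genes). Gja1, the connexin of granulosa gap junctions, read 735, 595, 689 and 631 CPM in WT and 935, 948 and 1154 CPM in p27null without passing the test (log2 fold change 0.61, SE 0.11, edgeR adjusted p 0.0607). Inha, the inhibin alpha subunit, read 1136, 1157, 1354 and 1133 CPM in WT and 1648, 1644 and 1730 CPM in p27null (log2 fold change 0.49, SE 0.09, edgeR adjusted p 0.0675). Both were higher in all 3 p27null libraries. Amh, the hormone of small growing follicles, named after its values were seen, was lower in all 3, at 653, 745, 895 and 659 CPM in WT and 486, 564 and 543 CPM in p27null (log2 fold change -0.48, SE 0.12, edgeR adjusted p 0.143). Cyp19a1, the aromatase that makes estrogen, also named after its values were seen, read 6.58, 9.95, 10.5 and 6.88 CPM in WT and 21.0, 13.6 and 15.0 CPM in p27null (log2 fold change 0.96, SE 0.21, edgeR adjusted p 0.108). The most abundant listed genes included Serpine2, at 1108, 1074, 1387 and 931 CPM in WT and 1215, 1316 and 1183 CPM in p27null, with overlapping groups. The mean level of the list, as log2 CPM minus the WT mean, was -0.03, -0.04, 0.15 and -0.09 in WT and 0.19, 0.09 and 0.27 in p27null, so WT replicate 3 lay inside the p27null range.

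Most pregranulosa genes had values slightly below WT. Of 22 tested, Cdkn1b itself was the 1 called gene (0.349% of all genes), 17 were below 0 and the median was -0.17 on the log2 scale. The summed level of the 22 genes was 2645, 2645, 2924 and 2500 CPM in WT and 2451, 2406 and 2207 CPM in p27null, with every p27null library below every WT library. Cdkn1b is part of that sum, at 128 CPM in WT replicate 4 and 71.0 CPM in p27null replicate 1. Without it p27null replicate 1 is no longer below WT replicate 4, and the groups overlap. Foxl2, given above for each library, averaged 443 ± 27.1 CPM (SD, n = 4) in WT and 365 ± 11.5 CPM (n = 3) in p27null; its groups did not overlap, but it did not pass the test (log2 fold change -0.28, SE 0.08, edgeR adjusted p 0.156). Wnt4, a signal needed for female gonad development, read 111, 169, 158 and 147 CPM in WT and 82.6, 69.6 and 113 CPM in p27null, and 1 p27null library lay just above the lowest WT library (log2 fold change -0.73, SE 0.19, edgeR adjusted p 0.157). Gata4, a transcription factor of gonadal somatic cells, was at 449.6, 471, 492 and 412 CPM in WT and 472, 415 and 429 CPM in p27null, with overlapping groups (log2 fold change -0.06).

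The mean level of growing-oocyte genes varied widely between WT libraries (SD 0.97 on the log2 scale, n = 4), and the genotype means differed by 0.87. None of 36 growing-oocyte genes and none of 20 primordial and early oocyte genes was called, and none had groups that did not overlap. In the growing-oocyte list 35 of 36 genes were above 0, with a median of 0.83 on the log2 scale, yet its mean level per library was 0.68, -0.95, -0.71 and 0.97 in WT and 0.17, 1.63 and 0.80 in p27null. WT replicates 2 and 3 were low and WT replicates 1 and 4 lay above p27null replicate 1, so the groups overlapped. Without p27null replicate 3 the median was 0.33, and without WT replicate 4 it was 1.20. Zp2, a protein of the egg coat, read 176, 41.2, 38.4 and 193 CPM in WT and 117, 278 and 161 CPM in p27null (log2 fold change 0.73, SE 0.70, edgeR adjusted p 0.676), and Padi6, an enzyme-like protein of the oocyte cytoplasm, read 307, 85.2, 104 and 332 CPM in WT and 214, 563 and 271 CPM in p27null (log2 fold change 0.76, SE 0.60, edgeR adjusted p 0.607). In the primordial list the median was 0.08. Foxo3, the transcription factor that restrains primordial follicle activation in oocytes, read 171, 130.1, 143 and 146 CPM in WT and 159, 154 and 142 CPM in p27null, and Dazl, a germ cell RNA-binding protein, read 3.10, 1.52, 1.45 and 4.18 CPM in WT and 2.28, 5.91 and 3.64 CPM in p27null. For both the groups overlapped (log2 fold changes 0.04 and 0.62, edgeR adjusted p 0.887 and 0.562). The part of these differences in oocyte RNA in the granulosa and stromal results was not tested.

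Meiotic prophase genes gave 1 call among 18 tested (0.349% of all genes), and the median was 0.05. Rec8, the meiotic cohesin subunit, fell and read 5.89, 12.8, 11.2 and 11.9 CPM in WT and 3.68, 3.03 and 2.94 CPM in p27null (log2 fold change -1.70, SE 0.27, edgeR adjusted p 0.0473). Every p27null library was below the lowest WT library. Tex15 and Ythdc2, both needed for meiosis in germ cells, were higher in all 3 p27null libraries without being called (log2 fold changes 0.31 and 0.22, edgeR adjusted p 0.256 and 0.25).

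**Figure D2:**
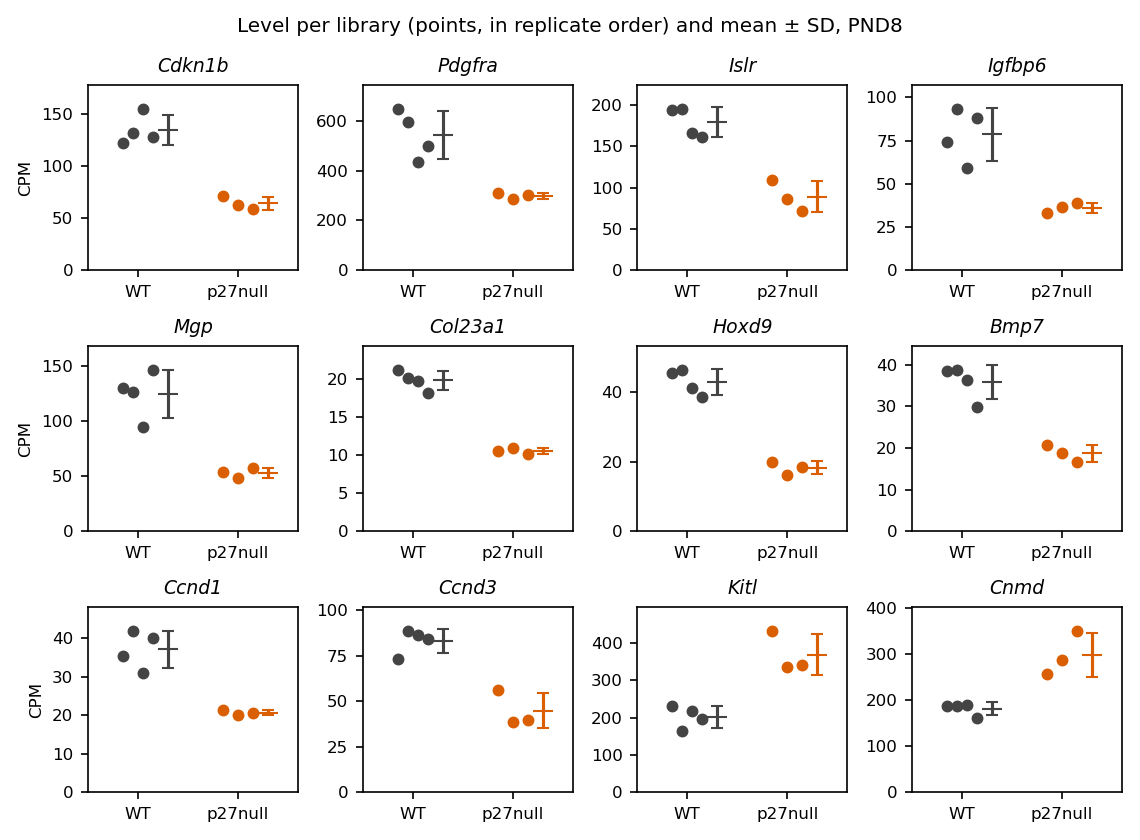
CPM (y axis, from 0) of 12 called genes in each PND8 library, with WT in grey and p27null in orange, points in replicate order and bars for the mean and SD of 4 WT and 3 p27null libraries. The groups do not overlap for any of the 12; Kitl and Cnmd are higher and the other genes lower in p27null ovaries.

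Theca and hedgehog genes gave no call. Theca cells are the steroid-making layer around growing follicles, and hedgehog ligands from granulosa cells act on their precursors. Of 25 theca and steroidogenic genes, 3 were above all WT libraries and 1 was below all (6.88% and 7.84% of all genes), and the median was -0.02. Hsd3b1, which converts pregnenolone to progesterone, read 918, 1043, 1126 and 1081 CPM in WT and 1469, 1227 and 1862 CPM in p27null (log2 fold change 0.54, SE 0.14, edgeR adjusted p 0.141). Star, which carries cholesterol into mitochondria, read 16.7, 26.3, 18.6 and 24.5 CPM in WT and 7.73, 12.3 and 13.9 CPM in p27null (log2 fold change -0.93, SE 0.23, edgeR adjusted p 0.138). The 2 steroidogenic genes thus stood on opposite sides of WT. In the hedgehog list of 16 tested genes the median was -0.21, and 3 were below all WT libraries (7.84% of all genes). Among them were Gas1, a hedgehog co-receptor (log2 fold change -0.75, SE 0.17, edgeR adjusted p 0.119), and Smo, the signal transducer (log2 fold change -0.28, SE 0.08, edgeR adjusted p 0.176). Ptch1, the receptor and a target of the pathway, read 715, 402, 380 and 334 CPM in WT and 340.3, 484 and 362 CPM in p27null with overlapping groups.

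Most stromal genes had lower values in p27null ovaries. Of 30 tested, 3 fell (0.304% of all genes), among them Pdgfra and Igfbp6, 10 had every p27null library below every WT library against 7.84% of all genes, 26 were below 0, and the median was -0.55 where that of all genes was -0.00. The list was chosen with earlier results of these data known, and the count and median describe it without testing it.

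Pdgfra, the receptor for platelet-derived growth factor A that marks fibroblast-like stroma, read 648, 596, 433 and 499 CPM in WT and 310.2, 286 and 300.4 CPM in p27null. Mean levels were 544 ± 96.3 CPM (SD, n = 4) in WT and 299 ± 12.1 CPM (n = 3) in p27null (log2 fold change -0.86, SE 0.14, edgeR adjusted p 0.0473). The WT libraries spread widely, and the p27null libraries sat close together below all of them. Igfbp6, which binds insulin-like growth factor II, read 74.0, 93.4, 59.0 and 88.1 CPM in WT and 33.1, 36.8 and 38.7 CPM in p27null (log2 fold change -1.12, SE 0.15, edgeR adjusted p 0.0442). Its p27null libraries again lay below the lowest WT library. Igfbp5, among the most abundant genes of the list, read 2060, 1657, 1358 and 2145 CPM in WT and 1342, 1962 and 1582 CPM in p27null, with overlapping groups (log2 fold change -0.15, SE 0.18, edgeR adjusted p 0.751), and Rarres2, which encodes the adipokine chemerin, read 73.2, 81.3, 59.5 and 85.3 CPM in WT and 45.0, 45.1 and 47.9 CPM in p27null (log2 fold change -0.70, SE 0.12, edgeR adjusted p 0.0531).

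The summed level of the stromal list was 5378, 4798, 3747 and 5157 CPM in WT and 3583, 3622 and 3422 CPM in p27null, below WT in every p27null library. Per library its mean log2 level was 0.25, -0.03, -0.37 and 0.15 in WT and -0.22, -0.72 and -0.47 in p27null, and here p27null replicate 1 lay above WT replicate 3. Without p27null replicate 1, 7 members were called, in a fit that called 72 of 18221 genes tested, and the median was -0.69. No member was called without p27null replicate 3 or without p27null replicate 4. Endothelial genes (20 tested, median -0.16) and pericyte and smooth muscle genes (17 tested, median -0.14) gave no call, and in neither list did any gene have groups that did not overlap.

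**Figure D3:**
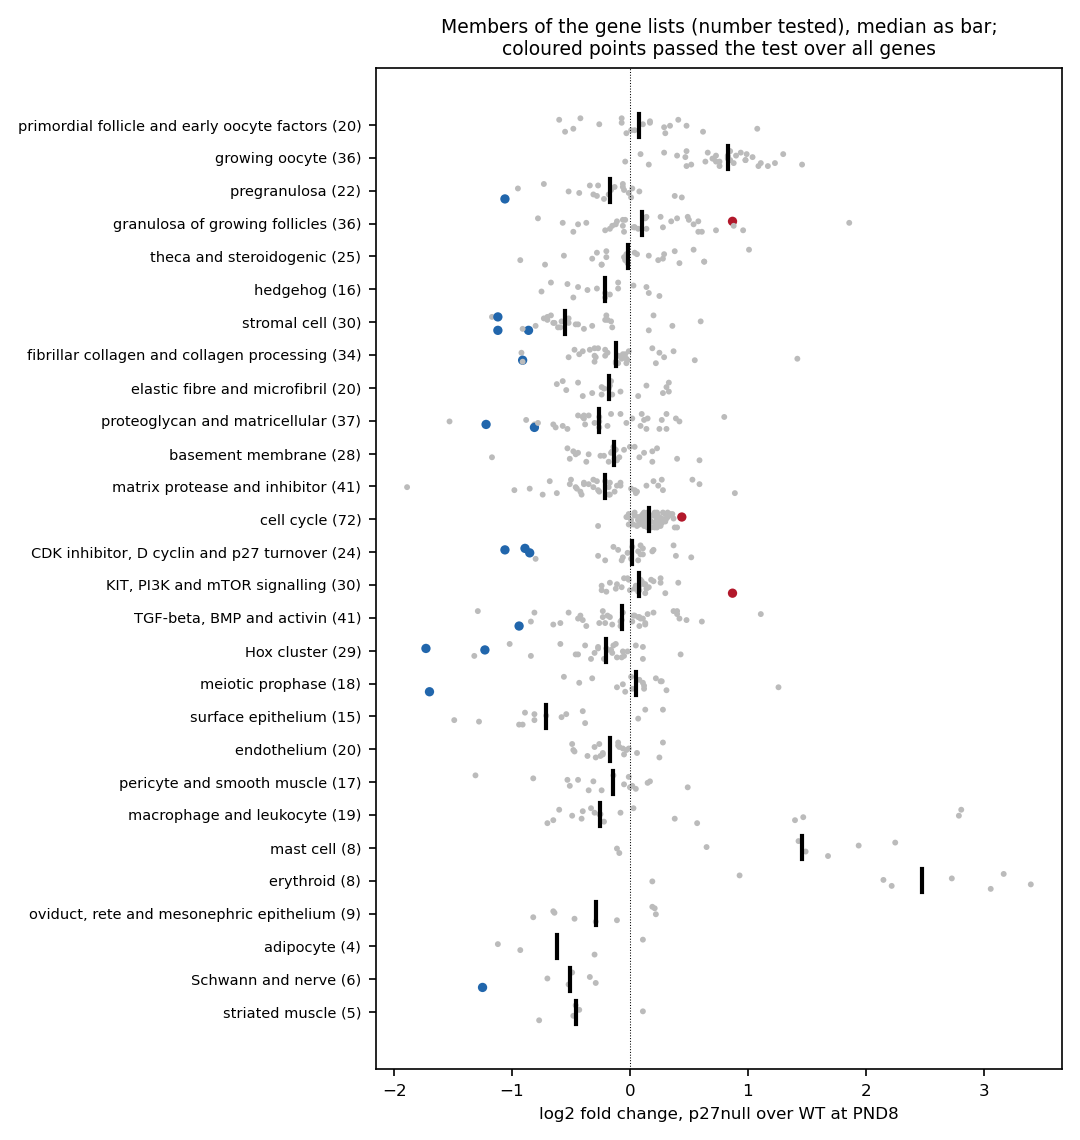
Log2 fold change at PND8 (x axis, p27null over WT) of every tested member of the 28 gene lists (y axis, number tested in brackets), with a bar at the list median; blue members fell, red members rose, and grey members did not pass the test. Stromal members lie mostly left of 0 (median -0.55), cell cycle members just right of it (median 0.16), and erythroid and mast cell members far right with none called.

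Of the 62 called genes, 54 of which fell, 11 encode matrix or matrix-associated proteins in a grouping made by hand after their values were seen. These 11 fell by 0.46 to 1.22 on the log2 scale. Col23a1, a transmembrane collagen, read 21.2, 20.1, 19.8 and 18.2 CPM in WT and 10.5, 10.9 and 10.2 CPM in p27null (log2 fold change -0.91, SE 0.09, edgeR adjusted p 0.0216). Col26a1, a collagen of gonadal tissue, read 104, 134.9, 98.3 and 108 CPM in WT and 58.5, 58.3 and 52.8 CPM in p27null (log2 fold change -0.97, SE 0.11, edgeR adjusted p 0.0291). In both genes the p27null libraries sat tightly together under WT. Mgp, a small matrix protein that restrains calcification, read 129.8, 127, 94.5 and 147 CPM in WT and 53.6, 48.6 and 57.7 CPM in p27null (log2 fold change -1.22, SE 0.14, edgeR adjusted p 0.0349). Srpx2, a secreted sushi-domain protein, read 95.6, 96.7, 74.2 and 84.6 CPM in WT and 54.9, 48.2 and 47.2 CPM in p27null (log2 fold change -0.81, SE 0.11, edgeR adjusted p 0.0371). The other 7 were Islr, Lrrc17, Mxra8, Olfml1, Cemip, Sdc2 and Vstm4. Islr, also known as meflin, is a marker of mesenchymal stroma and had 179 ± 18.0 CPM (SD, n = 4) in WT and 89.1 ± 18.7 CPM (n = 3) in p27null; Sdc2 is a cell-surface heparan sulfate proteoglycan; Cemip takes part in hyaluronan breakdown.

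The main fibrillar collagens did not follow these genes. Of 34 tested genes for collagens and their processing, Col23a1 fell and none rose (0.304% and 0.045% of all genes), and the median was -0.12, with 7 below all WT libraries (7.84% of all genes). Col1a2 and Col3a1, chains of collagens I and III, were the most abundant and overlapped between genotypes: Col1a2 read 4322, 3763, 3029 and 3439 CPM in WT and 3928, 2948 and 2694 CPM in p27null (log2 fold change -0.19, SE 0.16, edgeR adjusted p 0.625) and Col3a1 read 3225, 2615, 2334 and 2485 CPM in WT and 3377, 2255 and 1991 CPM in p27null (log2 fold change -0.07, SE 0.19, edgeR adjusted p 0.906). In both, p27null replicate 1 was among the highest libraries. Pcolce, an enhancer of procollagen cleavage, read 255, 268, 268 and 243 CPM in WT and 212, 168 and 179.8 CPM in p27null (log2 fold change -0.47, SE 0.09, edgeR adjusted p 0.0775), and Loxl3, a cross-linking oxidase, had 24.5 ± 2.06 CPM (SD, n = 4) in WT and 17.0 ± 2.56 CPM (n = 3) in p27null (log2 fold change -0.52, SE 0.12, edgeR adjusted p 0.109). These 2 were below WT in every p27null library. Without p27null replicate 1 the list had 3 calls, in a fit that called 72 of 18221 genes tested, and a median of -0.34. Without p27null replicate 3 or without p27null replicate 4 it had no call.

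None of 20 elastic fibre and microfibril genes was called, and 5 were below all WT libraries, as were 7.84% of all genes. Ltbp4, a latent TGF-beta binding protein of elastic fibres, read 808, 636, 553 and 680.4 CPM in WT and 509.5, 409.6 and 386 CPM in p27null (log2 fold change -0.62, SE 0.15, edgeR adjusted p 0.117). Mfap2 and Emilin1, which associate with microfibrils and elastin, were also below WT in every p27null library (log2 fold changes -0.54 and -0.57, edgeR adjusted p 0.0767 and 0.11). Fibrillin genes overlapped: Fbn1 read 992, 565, 573 and 619.6 CPM in WT and 790, 617 and 432 CPM in p27null and Fbn2 read 893, 628, 821 and 609.9 CPM in WT and 783, 771 and 546 CPM in p27null. The median of the list was -0.17, and it was -0.40 without p27null replicate 1.

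Among 37 proteoglycan and matricellular genes Mgp and Srpx2 fell (0.304% of all genes), 7 were below all WT libraries (7.84% of all genes), and the median was -0.26. Sparc, a collagen-binding matricellular protein, read 1624, 1655, 1382 and 1712 CPM in WT and 1355, 1141 and 1152 CPM in p27null, and its relative Sparcl1 read 697, 501, 479.7 and 601 CPM in WT and 370.4, 306 and 297 CPM in p27null. Both were below WT in every p27null library and neither passed the test (edgeR adjusted p 0.157 for Sparc and 0.0615 for Sparcl1). Of 28 basement membrane genes, none was called, 6 were below and 1 above all WT libraries (7.84% and 6.88% of all genes), and the median was -0.14. Lamc3, a laminin chain, had 186 ± 27.5 CPM (SD, n = 4) in WT and 130.3 ± 7.98 CPM (n = 3) in p27null (log2 fold change -0.51, SE 0.12, edgeR adjusted p 0.112), and Col4a1, the abundant chain of collagen IV, read 1769, 1385, 1404 and 1637 CPM in WT and 1558, 1278 and 1276 CPM in p27null with overlapping groups.

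Of 41 matrix proteases and inhibitors, none was called and 10 were below all WT libraries (7.84% of all genes), with a median of -0.21. Mmp2, a gelatinase made by fibroblasts, read 667, 596, 488 and 559.5 CPM in WT and 391, 330.1 and 315 CPM in p27null (log2 fold change -0.74, SE 0.12, edgeR adjusted p 0.0527), just past the threshold. Reck, a membrane inhibitor of metalloproteinases, had 63.0 ± 10.7 CPM (SD, n = 4) in WT and 39.2 ± 3.61 CPM (n = 3) in p27null (log2 fold change -0.68, SE 0.14, edgeR adjusted p 0.0803), and Adamtsl2 had 38.6 ± 5.88 CPM (SD, n = 4) in WT and 25.2 ± 0.880 CPM (n = 3) in p27null (log2 fold change -0.62, SE 0.12, edgeR adjusted p 0.0754). The summed level of this list was 4068, 3642, 3841 and 3594 CPM in WT and 3533, 3223 and 3005 CPM in p27null, below WT in every p27null library, though WT replicate 4 and p27null replicate 1 were close.

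Most cell cycle genes had values slightly above WT, and D-type cyclins had values below it. Of 72 cell cycle genes, Ncapg rose and none fell (0.045% and 0.304% of all genes), 67 were above 0, and 18 were above all WT libraries against 6.88% of all genes. The median was 0.16 on the log2 scale, and its range over the 7 fits that left out 1 library was 0.11 to 0.22. Ncapg, a condensin subunit, read 36.5, 36.2, 35.2 and 35.5 CPM in WT and 49.1, 46.4 and 50.7 CPM in p27null (log2 fold change 0.44, SE 0.06, edgeR adjusted p 0.0442). Its WT libraries differed little from one another and all p27null libraries stood above them. Pola1, the catalytic subunit of DNA polymerase alpha, read 59.6, 57.8, 56.0 and 58.2 CPM in WT and 74.9, 71.5 and 83.0 CPM in p27null (log2 fold change 0.40, SE 0.07, edgeR adjusted p 0.0537), and Smc4, another condensin subunit, read 138, 151, 154 and 145 CPM in WT and 194, 172 and 203 CPM in p27null (log2 fold change 0.37, SE 0.08, edgeR adjusted p 0.0948). Mki67, which encodes the Ki-67 proliferation marker, and Top2a, topoisomerase II alpha, were the most abundant and overlapped, at 621, 488, 721 and 495 CPM in WT and 818, 712 and 592 CPM in p27null for Mki67 and 447, 474, 507 and 438 CPM in WT and 602, 494 and 557 CPM in p27null for Top2a. G2e3, a ubiquitin ligase named for its expression in G2 phase, rose outside the list and read 35.7, 32.4, 35.5 and 32.9 CPM in WT and 48.2, 44.4 and 45.8 CPM in p27null (log2 fold change 0.44, SE 0.07, edgeR adjusted p 0.0473).

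In the list of inhibitors, D-type cyclins and p27 turnover, 3 of 24 genes fell and none rose (0.304% and 0.045% of all genes). They were the targeted gene Cdkn1b itself, Ccnd1 and Ccnd3. D-type cyclins pair with CDK4 and CDK6 to start the cell cycle. Ccnd1 read 35.3, 41.9, 30.9 and 39.96 CPM in WT and 21.2, 20.0 and 20.6 CPM in p27null (log2 fold change -0.85, SE 0.11, edgeR adjusted p 0.0371). Ccnd3 read 73.4, 88.7, 86.2 and 84.0 CPM in WT and 56.2, 38.7 and 39.8 CPM in p27null (log2 fold change -0.89, SE 0.14, edgeR adjusted p 0.0473), and its adjusted p was 0.0521 under the size factors of DESeq2 used in edgeR. Ccnd2, the most abundant D cyclin and the one known for granulosa cell division, read 885, 828, 1305 and 740.2 CPM in WT and 596, 532 and 490 CPM in p27null and missed the threshold (log2 fold change -0.80, SE 0.19, edgeR adjusted p 0.126). In all 3 D cyclins every p27null library was below every WT library (7.84% of all genes). The median of the list was 0.01. Cdk4 read 400.1, 524, 495 and 464 CPM in WT and 393, 396 and 428 CPM in p27null (log2 fold change -0.21, SE 0.10, edgeR adjusted p 0.36), with overlapping groups.

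**Figure D4:**
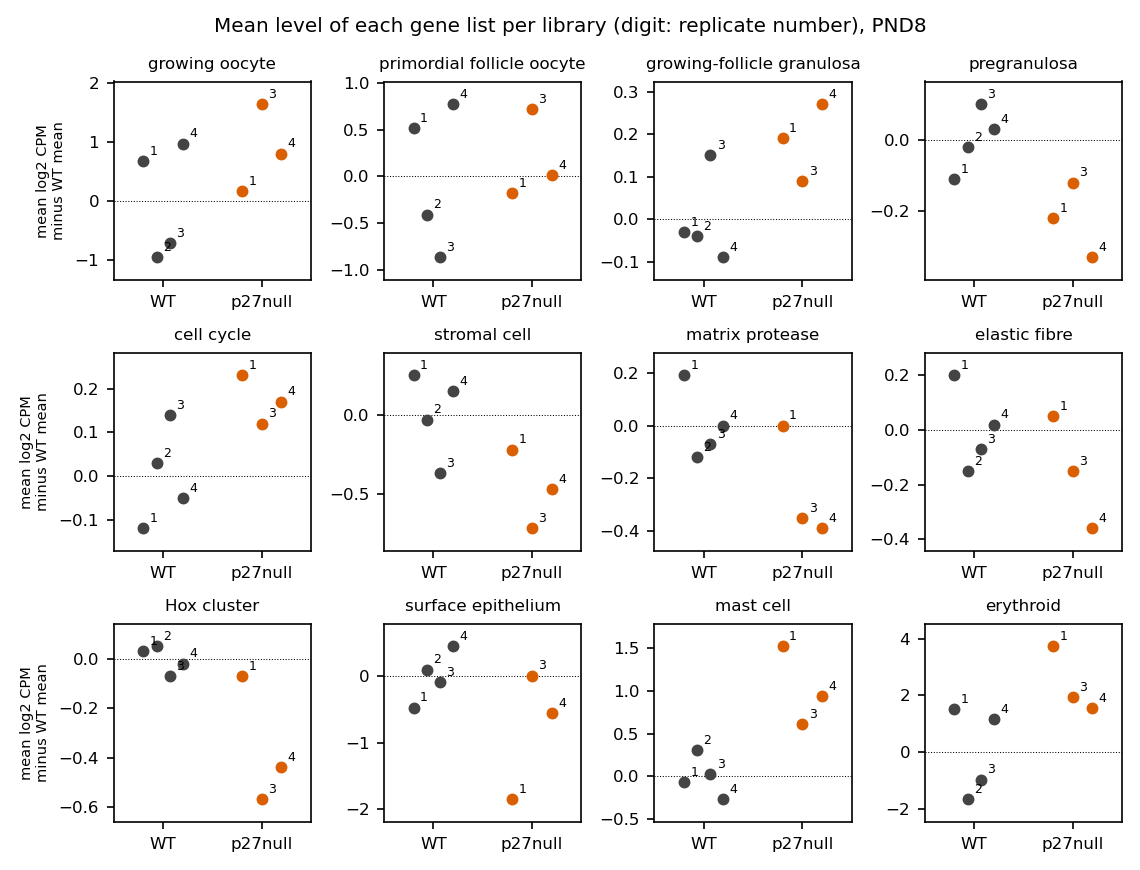
Mean log2 CPM of the members of 12 gene lists in each PND8 library minus the mean of the WT libraries (y axis), with WT in grey, p27null in orange and replicate numbers beside the points. Growing-oocyte levels overlap between genotypes, mast cell levels do not (p27null 0.61 to 1.52), and p27null replicate 1 stands apart for erythroid (3.73) and surface epithelium (-1.85) genes.

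Of 30 tested KIT, PI3K and mTOR genes, only Kitl, the ligand gene itself, was called (0.349% of all genes), and no gene downstream of it was. In this list 4 genes were below and 1 above all WT libraries (7.84% and 6.88% of all genes), and the median was 0.08. Akt1 and Akt2, kinases of the pathway, were below WT in every p27null library without being called (-0.24 and -0.20 on the log2 scale, edgeR adjusted p 0.225 and 0.223). Rps6, the ribosomal protein whose phosphorylation reports mTOR activity, read 521, 682, 628 and 614 CPM in WT and 409.6, 570.3 and 648 CPM in p27null as RNA, with overlapping groups.

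TGF-beta, BMP and activin genes gave 1 call of 41 (0.349% of all genes). It was Bmp7, a ligand of the BMP family, which read 38.5, 38.8, 36.4 and 29.8 CPM in WT and 20.7, 18.8 and 16.6 CPM in p27null (log2 fold change -0.94, SE 0.12, edgeR adjusted p 0.0354). Every p27null library was below WT. In this list 10 genes were below and 4 above all WT libraries (7.84% and 6.88% of all genes), and the median was -0.07. Tgfb3, another ligand, read 163, 126, 111 and 112 CPM in WT and 75.4, 80.9 and 57.7 CPM in p27null (log2 fold change -0.84, SE 0.16, edgeR adjusted p 0.082), and Chrd, which encodes the BMP antagonist chordin, had 4.10 ± 0.405 CPM (SD, n = 4) in WT and 1.67 ± 0.512 CPM (n = 3) in p27null (log2 fold change -1.29, SE 0.25, edgeR adjusted p 0.0721). Smad3, an intracellular mediator, read 402, 367, 521 and 346 CPM in WT and 435, 394 and 339 CPM in p27null, with overlapping groups. Outside the list, Pmepa1, a TGF-beta target that damps the pathway, fell and read 65.7, 62.0, 51.9 and 67.3 CPM in WT and 35.9, 28.4 and 34.1 CPM in p27null (log2 fold change -0.91, SE 0.11, edgeR adjusted p 0.0354), and Nbl1, a secreted BMP antagonist, fell and read 62.5, 71.5, 60.3 and 60.1 CPM in WT and 44.1, 38.6 and 40.8 CPM in p27null (log2 fold change -0.63, SE 0.08, edgeR adjusted p 0.043).

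Other signalling genes that were called are given in a grouping made after their values were seen. Of 14 ligands, receptors and modulators, 11 fell and 3 rose, where 54 of all 62 called genes fell. Edn3, the peptide endothelin 3, read 17.5, 20.3, 13.9 and 18.0 CPM in WT and 7.36, 9.26 and 7.52 CPM in p27null (log2 fold change -1.12, SE 0.15, edgeR adjusted p 0.043). The receptors Ret and Fgfr4 fell (log2 fold changes -1.26 and -0.76), as did the ligand Nrg2 (-1.17) and the secreted proteins Angptl6 (-1.20) and C1qtnf1 (-0.47). Beside Kitl, the genes that rose were Cnmd, which encodes the anti-angiogenic protein chondromodulin and read 188, 187, 189.9 and 160.3 CPM in WT and 256, 286 and 350.1 CPM in p27null (log2 fold change 0.71, SE 0.11, edgeR adjusted p 0.0473), and Cxxc4, which encodes the Wnt inhibitor Idax and read 21.7, 15.1, 17.1 and 18.4 CPM in WT and 31.4, 30.2 and 31.7 CPM in p27null (log2 fold change 0.79, SE 0.12, edgeR adjusted p 0.0473). In both, the lowest p27null library was above the highest WT library.

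Hox genes, transcription factors of body axis patterning, held the gene with the smallest p of all. Hoxd9 (chr2:74697727-74700208, + strand, GRCm38) read 45.6, 46.5, 41.2 and 38.6 CPM in WT and 19.9, 16.4 and 18.6 CPM in p27null, and the p27null mean was 42.6% of the WT mean (log2 fold change -1.23, SE 0.10, edgeR adjusted p 0.0147). Its promoter window (RefSeq, GRCm38.p6, chr2:74697513-74697812, + strand) is printed as that of the gene with the smallest p, with GC box matches (GGGCGG, either strand) in capitals.
Hoxd9: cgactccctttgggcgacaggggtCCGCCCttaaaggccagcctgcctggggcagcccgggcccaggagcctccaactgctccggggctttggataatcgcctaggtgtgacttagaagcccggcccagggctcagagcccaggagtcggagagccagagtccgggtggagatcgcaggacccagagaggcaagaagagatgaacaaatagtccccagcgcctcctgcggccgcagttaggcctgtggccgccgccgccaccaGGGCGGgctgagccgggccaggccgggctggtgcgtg
It held 2 GC box matches and no TATA box, CCAAT or TGTTTAC match on either strand. Of the 62 called genes, 42 had a promoter window, and 25 of those held a GC box match, 19 a CCAAT match, 6 a TATA box match and 1 a TGTTTAC match. Over all 32851 windows the shares were 35.7%, 37.4%, 13.6% and 3.65%. A called gene was counted if any of its windows matched, whereas the shares count single windows, so the 2 cannot be compared directly.

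Of 39 Hox genes, 29 were tested. Hoxd9 and Hoxd3 fell, none rose (0.304% and 0.045% of all genes), and the median was -0.20. The 4 genes below all WT libraries (7.84% of all genes) were Hoxd3, Hoxd8, Hoxd9 and Hoxd10, all in the HoxD cluster on chromosome 2. Hoxd10 read 16.9, 14.2, 14.2 and 11.9 CPM in WT and 7.97, 4.55 and 4.55 CPM in p27null (log2 fold change -1.32, SE 0.22, edgeR adjusted p 0.0543) and Hoxd8 read 38.8, 31.7, 28.4 and 32.7 CPM in WT and 22.3, 19.4 and 23.9 CPM in p27null (log2 fold change -0.59, SE 0.12, edgeR adjusted p 0.0862). Hoxd3 read 2.47, 3.62, 3.70 and 4.08 CPM in WT and 0.884, 1.17 and 1.08 CPM in p27null (log2 fold change -1.73, SE 0.25, edgeR adjusted p 0.0473). In the annotation Hoxd3 overlaps Hoxd4 on the same strand and Hoxd3os1 and Haglr on the opposite strand, so its counts are uncertain. The counts of Hoxd10, which overlaps Gm28309 on the same strand, and of Hoxd8, which overlaps Hoxd3os1 on the opposite strand, are uncertain too. The mean level of the list per library was 0.03, 0.05, -0.07 and -0.02 in WT and -0.07, -0.57 and -0.44 in p27null, and p27null replicate 1 equalled WT replicate 3; without p27null replicate 1 the median was -0.41.

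The other called genes of transcription and chromatin all fell, as did 54 of all 62 called genes. Mxd4, a MAX partner that opposes MYC, read 131, 143, 146 and 138 CPM in WT and 89.4, 78.2 and 86.7 CPM in p27null (log2 fold change -0.72, SE 0.07, edgeR adjusted p 0.0216). The predicted gene Gm42846 lies on the opposite strand across Mxd4 and fell with it (log2 fold change -1.14), and without known strandedness their reads cannot be told apart. Lmcd1, a LIM-domain cofactor, had 54.2 ± 12.6 CPM (SD, n = 4) in WT and 20.4 ± 1.08 CPM (n = 3) in p27null (log2 fold change -1.41, SE 0.18, edgeR adjusted p 0.043). Foxs1, Cbx6 and Hdac11 fell by 0.72, 0.49 and 0.50 on the log2 scale. Pou4f2 was rare, at 1.57, 0.953, 0.846 and 0.836 CPM in WT and 0.185, 0.133 and 0.117 CPM in p27null, which is near the level of 3 counts in p27null libraries.

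The 22 called genes that remain had mixed roles, and 19 of them fell, where 54 of all 62 called genes fell. Astn2, an astrotactin of neuronal migration, read 4.73, 8.87, 5.99 and 8.60 CPM in WT and 0.925, 0.958 and 0.495 CPM in p27null (log2 fold change -3.14, SE 0.33, edgeR adjusted p 0.0222). Camk2n1, an inhibitor of the kinase CaMKII, read 16.1, 17.6, 20.4 and 18.0 CPM in WT and 10.3, 8.94 and 9.67 CPM in p27null (log2 fold change -0.90, SE 0.11, edgeR adjusted p 0.0354). In both genes the p27null libraries lay close together and well under WT. The predicted gene Gm37240 read 0.626, 1.10, 0.556 and 1.20 CPM in WT and 0.0411, 0.0266 and 0.0583 CPM in p27null, under the level of 3 counts in every p27null library, so no fold is given. The others that fell were Fam20a, Cacng5, Afap1l2, Atp2a3, B3gnt9, Dpysl3, Itm2c, Mgat3, Osbpl3, Pltp, Podxl2, Pygm, Tbc1d16 and Tns2, by 0.50 to 1.25 on the log2 scale.

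Mybpc3, a myosin-binding protein of cardiac muscle, rose and read 20.4, 12.4, 15.0 and 14.8 CPM in WT and 42.0, 36.9 and 29.4 CPM in p27null (log2 fold change 1.21, SE 0.18, edgeR adjusted p 0.0473). Mpped2, a metallophosphodiesterase, rose from a low level and read 2.88, 2.69, 3.33 and 2.75 CPM in WT and 5.71, 7.35 and 7.72 CPM in p27null (log2 fold change 1.25, SE 0.18, edgeR adjusted p 0.0442). Shtn1, which encodes shootin 1, a protein of axon outgrowth, rose and read 31.0, 30.1, 30.6 and 33.7 CPM in WT and 51.9, 43.8 and 48.3 CPM in p27null (log2 fold change 0.61, SE 0.08, edgeR adjusted p 0.0371). No p27null library of these 3 genes was within the WT range. Of the 62 called genes, 37 overlap no other annotated gene, and 25 overlap at least 1, so their counts are uncertain without strandedness.

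Markers of other cells moved with some libraries. Over 8 tested mast cell genes the median was 1.46 on the log2 scale, 6 were above 0 and 2 below, and none was called. Of the 8, 4 were above all WT libraries (6.88% of all genes). Their summed level was 26.8, 35.7, 27.9 and 26.2 CPM in WT and 81.3, 36.8 and 56.7 CPM in p27null. Cma1 and Tpsb2, proteases of mast cell granules, read 3.07, 6.11, 4.74 and 3.64 CPM in WT and 18.2, 6.79 and 12.0 CPM in p27null and 3.91, 6.43, 5.24 and 3.83 CPM in WT and 19.5, 7.08 and 12.6 CPM in p27null (edgeR adjusted p 0.124 for each). Hdc, among the most abundant of the list, overlapped between genotypes, at 7.80, 9.07, 6.67 and 8.65 CPM in WT and 6.60, 8.12 and 8.01 CPM in p27null (log2 fold change -0.09, SE 0.15, edgeR adjusted p 0.835). Erythroid genes summed to 179, 7.63, 11.8 and 119.7 CPM in WT and 1651, 226 and 148 CPM in p27null, with p27null replicate 1 above all others and WT replicates 2 and 3 lowest; the median of 2.48 was 1.13 without p27null replicate 1. Of the macrophage and leukocyte genes, S100a8, a protein of neutrophils, read 0.0313, 0.342, 0.338 and 0.147 CPM in WT and 2.94, 0.479 and 1.22 CPM in p27null and was not called (log2 fold change 2.81, SE 0.74, edgeR adjusted p 0.151). Its level in WT replicate 1 was under the level of 3 counts (0.0929 CPM), so the size of its fold change is uncertain. Csf1r, a macrophage receptor, read 11.2, 14.7, 11.5 and 16.5 CPM in WT and 11.8, 13.1 and 7.17 CPM in p27null.

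Surface epithelium genes had a median of -0.71 over 15 tested with overlapping groups, and p27null replicate 1 was the lowest library at -1.85 (mean log2 level minus that of WT); without it the median was -0.35. Of 6 Schwann and nerve genes tested, 1 fell (0.304% of all genes), and the median was -0.51. Oviduct, rete and mesonephric genes (9 tested, median -0.29), adipocyte genes (4 tested, median -0.61) and striated muscle genes (5 tested, median -0.46) had overlapping summed levels and gave no call. Foxj1, which drives formation of motile cilia, was at 0.233 to 1.07 CPM over the 7 libraries, and Ckm, the muscle creatine kinase, at 0.266 to 0.966 CPM. The part of these cells in the results for stroma, matrix and granulosa was not tested.

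The called genes were also placed along the genome relative to the targeted gene. Chromosome 6 held 7 called genes of 938 tested (0.746%), against 55 of 16847 (0.326%) on the other chromosomes. The 7 include Cdkn1b itself. Mgp lay nearest to Cdkn1b, 1.95 Mb away, and within 5 Mb on either side 2 of 46 tested genes were called, Cdkn1b and Mgp. The other 5 were Ret, Lmcd1, Hdac11, Podxl2 and Osbpl3, at 16.8 to 84.6 Mb. Chromosome 2 held 10 of 1374 (0.728%), among them Hoxd9, Hoxd3, Bmp7 and Edn3, and chromosome 15 held 5 of 638 (0.784%).

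The genotype effect at PND8 was set beside those at E18.5 (4 WT and 4 p27null samples) and at 12 weeks (12wk, 4 WT and 3 p27null samples), in a fit of the 2 ages together, whose scaling the CPM in these comparisons use. The samples of the other ages are independent of those at PND8. At E18.5, 52 of the 54 genes that fell at PND8 were below 0 with a median log2 fold change of -0.58, and 6 of the 8 that rose were above 0. Over all genes 56.3% had the same sign at both ages. At 12wk, 26 of the 54 were below 0 with a median of 0.02, and 5 of the 8 that rose were above 0 with a median of 0.22. Over all genes 51.6% had the same sign at PND8 and 12wk. Kitl had log2 fold changes of 0.34 at E18.5 and 0.64 at 12wk, Pdgfra of -0.58 and -0.47, Ccnd1 of -0.54 and 0.11, Hoxd9 of -0.99 and 0.33, and Col23a1 of -0.49 and 0.47.

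Tests of the difference itself called 156 of 18687 genes (0.835%) between PND8 and E18.5 and 2 of 18768 (0.0107%) between PND8 and 12wk. Of the 62 genes called at PND8, 3 differed from E18.5 (Cdkn1b, Edn3 and Lmcd1) and none differed from 12wk at an adjusted p under 0.05. Edn3 differed by -1.19 on the log2 scale (edgeR adjusted p 0.0102): at E18.5 it read 31.4 ± 0.799 CPM (n = 4) in WT and 33.1 ± 2.82 CPM (n = 4) in p27null ovaries, so that its lower level was seen at PND8 and not at E18.5. Lmcd1 differed by -1.04 (edgeR adjusted p 0.0200), from 109.1 ± 3.64 and 84.8 ± 7.46 CPM at E18.5.

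Of the genes named here whose effect differed from E18.5, 4 belong to the cell cycle list, and all 4 had the larger genotype effect at E18.5. Top2a and Pola1 were named as members of that list and not for the difference. The 4 are therefore no count over the list to set against the 0.835% of all genes that differed. Cdc20, an activator of the anaphase-promoting complex, read 42.6 ± 3.88 CPM in WT and 126.1 ± 9.37 CPM in p27null ovaries at E18.5, where the groups did not overlap, and 117.9 ± 19.98 CPM (n = 4) and 121.9 ± 8.29 CPM (n = 3) at PND8, where they did, with both ages scaled together (difference of effects -1.52, edgeR adjusted p 0.00105). Racgap1, a regulator of cytokinesis, differed by -1.29 (edgeR adjusted p 0.00800), Top2a by -1.13 (0.0121 by the same edgeR test), and Pola1 by -0.79 (edgeR adjusted p 0.0273). Tnni3, the cardiac troponin I gene, differed by -1.72 (edgeR adjusted p 0.00143), with 16.4 ± 1.36 CPM in WT and 60.0 ± 6.78 CPM in p27null ovaries at E18.5. The 2 genes that differed from 12wk were Hoxd8, by -1.30, and Rarres2, by -2.0 (edgeR adjusted p 0.00661 for each): at 12wk both were higher in p27null ovaries, Hoxd8 at 27.0 ± 0.911 CPM (n = 4) in WT and 44.9 ± 1.47 CPM (n = 3) in p27null, and Rarres2 at 63.8 ± 10.6 and 158 ± 31.8 CPM. Each overlaps another annotated gene on the opposite strand, so their counts are uncertain without strandedness.

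**Figure D5:**
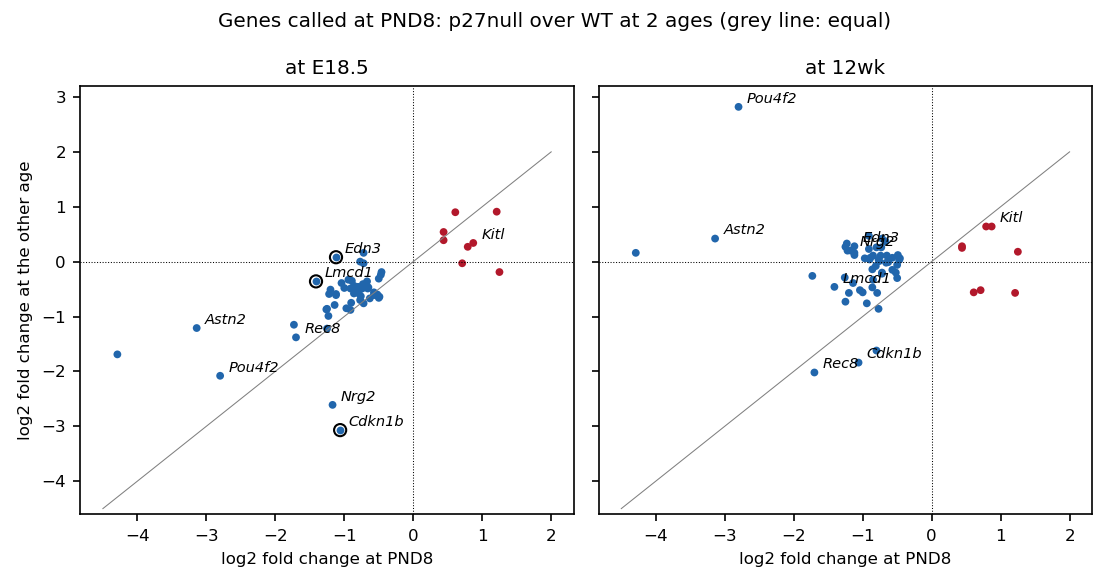
Log2 fold change of the 62 genes called at PND8 (x axis, p27null over WT) against that at E18.5 (left, y axis) and at 12wk (right, y axis), with blue for genes that fell and red for genes that rose at PND8, and circles for the 3 genes whose effect differed from E18.5. At E18.5, 52 of the 54 blue points lie below 0, and at 12wk 26 of them do.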

How the data were processed

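Bulk RNA sequencing was analysed for 4 WT and 3 p27null PND8 ovary samples, grouped by their titles; E18.5 and 12wk samples entered the comparisons between ages. The authors deposited gene-level RSEM expected counts, per the file headers, which are estimated read counts, and 31.4% of those above 0 were not whole. Per the submitters' processing notes, the tools were Trim Galore, FastQC 0.11.5, STAR 2.5.2 and RSEM 1.3.0; the genome build, annotation release and strandedness are not given in the sources used here. RSEM shares reads between similar genes, so near-identical copies are uncertain. The table held 51912 gene IDs, of which 51633 matched a symbol. Gene positions, 1-based, were looked up by gene ID in GENCODE M21 (GRCm38).

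Counts were rounded and tested with edgeR 4.0.16 (R 4.3.3): the 7 PND8 samples were scaled by TMM, low genes were dropped by filterByExpr with a minimum count of 10 and a minimum total of 15, the quasi-likelihood fit was robust, and p-values were adjusted by Benjamini-Hochberg, with calls under 0.05. The differences between ages were contrasts in a fit of both ages. The SE of a log2 fold change is its absolute value over the root of the F statistic, and CPM use TMM-scaled library sizes. Replicate pairs all differed by more than sampling noise, and no 2 samples were counted as 1. The script was tested on simulated counts. The floor of 3 counts reflects counting error alone, because the reads carry no molecular identifiers that are stated.

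The 28 gene lists, the comparison and the tests were chosen with earlier results of these data known, so list counts and medians are descriptions. Named genes are Cdkn1b, every called gene but those left out (full values for up to 10 higher and 16 lower by smallest p, with a mean of at least 1 CPM and no predicted symbol), in each list its called members, or else up to 3 with the smallest p, and its 2 most abundant, and up to 4 genes per difference between ages; others are marked as named after their values were seen. Alternatives were DESeq2 1.42.0, limma-voom with sample weights (limma 3.58.1), RLE scaling, no filter on low counts, all 29 samples in 1 fit, a block for the replicate number, and each library left out in turn. The groupings of called genes by role were made by hand after the values were seen. Results for some single genes are left out of the text.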

Additional observations from a re-analysis of the deposited data

Results flagged for a closer look

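In 6 of 170 named genes, 1 of the 4 WT libraries lay far from the other 3 (a gap to the nearest, over the range, above Dixon's 95% critical value), and chance gives about 1 in 20. WT replicate 1 read 1.566 CPM for Pou4f2 against 0.836 to 0.953 CPM in the other WT libraries, 267.1 CPM for Aldh1a1, a retinaldehyde dehydrogenase, against 325 to 330.1 CPM, 992.4 CPM for Fbn1 against 564.8 to 619.6 CPM, and 64.29 CPM for Igfbp2 against 93.7 to 97.7 CPM. WT replicate 4 read 160.3 CPM for Cnmd against 187 to 189.9 CPM, and WT replicate 3 read 1354 CPM for Inha against 1133 to 1157 CPM. Pou4f2 and Cnmd are among the 62 genes called at PND8.

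The genotype effect differed between PND8 and E18.5, by edgeR's quasi-likelihood test of the difference on the log2 scale, for Cdkn1b by 2.01 (adjusted p 0.000787), Cdc20 by -1.52 (0.00105), Tnni3 by -1.72 (0.00143), Racgap1 by -1.29 (0.00800), Edn3 by -1.19 (0.0102), Top2a by -1.13 (0.0121), Lmcd1 by -1.04 (0.0200), Pola1 by -0.79 (0.0273) and Ythdc2 by 0.85 (0.0405). For Ythdc2, an RNA helicase of meiotic entry, WT and p27null ovaries read 18.9 ± 2.54 and 12.2 ± 1.96 CPM at E18.5 (SD, n = 4 each). Between PND8 and 12wk the effect differed for Hoxd8 by -1.30 and for Rarres2 by -2.0 (adjusted p 0.00661 for each, edgeR).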

How the results depend on the processing

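The number of genes called at PND8 depended on the setting. The called genes kept their sign, which was nearly fixed in advance because their groups did not overlap. Against 62 calls (8 higher, 54 lower), DESeq2 gave 741 (293 and 448; 60 of the 62 shared, the adjusted p of the other 2 being NA), limma-voom with sample weights 169 (44 and 125; 62 shared), no filter on low counts 258 (72 and 186; 62 shared), RLE scaling 55 (55 shared), and all 29 samples in 1 edgeR fit 0 (0 and 0; 1143 with an unadjusted p under 0.05). Without 1 library there were 0 to 147 calls, 0 to 36 higher and 0 to 111 lower. The difference of effects from E18.5 had 156 calls, 536 with DESeq2, 67 with all samples in 1 fit and 49 to 149 without 1 library. The difference from 12wk had 2 calls, 306 with DESeq2 (2 shared), 5 with all samples in 1 fit and 0 to 3 without 1 library (0 without p27null replicate 1). The cause of these changes was not tested.

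Same-numbered WT and p27null samples deviated together with correlations of 0.128, -0.029 and 0.201 for numbers 1, 3 and 4, so not every pair deviated together, and the labels do not say whether numbers mark litters or days; the numbers were not taken as pairs. With the replicate block, which leaves WT replicate 2 without a partner, 8 genes were called at PND8 (3 higher, 5 lower; 5 shared, among them Hoxd9, Mgp and Pmepa1), 10 for the difference from E18.5 and 10 for that from 12wk.

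Of 364 list medians under an alternative, 11 moved by more than the SD of the list's level between libraries, pooled over WT and p27null, all without 1 library. Without 1 library the medians ran from 0.04 to 0.23 for growing-follicle granulosa, -0.34 to -0.07 for collagens, -0.40 to -0.04 for elastic fibres, -0.39 to -0.10 for proteases, -0.05 to 0.01 for CDK inhibitors and D cyclins, -0.17 to 0.06 for TGF-beta, -0.41 to -0.14 for Hox, 1.05 to 1.76 for mast cells, -0.52 to 0.09 for oviduct and -0.66 to -0.25 for striated muscle. The median of all genes lay between -0.009 and 0.010 in every setting, against -0.003 as reported. Of 2210 values of named genes under an alternative, 30 changed sign, none of a called gene. Foxo3 was -0.01 and Uchl1 -0.03 with the replicate block, and Fbn2 0.01 with limma-voom. Without 1 library, the genes whose sign changed ran from lowest to highest as follows: Foxo3 -0.02 to 0.12, Uchl1 -0.27 to 0.43, Ptch1 -0.38 to 0.09, Col3a1 -0.34 to 0.08, Fbn2 -0.17 to 0.07, Fbn1 -0.40 to 0.07, Thbs1 -0.18 to 0.02, Htra1 -0.16 to 0.05, Smad3 -0.17 to 0.07, Mlh3 -0.03 to 0.05, Krt8 -0.01 to 0.22, Cdh5 -0.27 to 0.07, Eng -0.35 to 0.04, Mylpf -0.03 to 0.25 and Cdc20 -0.04 to 0.14.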
